A study of Mus musculus with 56 samples.

Results

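The interstitial collagen genes of mouse back skin are the subject here, taken as every row of the expression table whose symbol has the form Col, a number, a and a number, without the 6 type IV chains of basement membranes, Col7a1 and Col17a1. The rule found 36 genes among 44 of that form and 24062 in the table. By the family's usual classes they were 11 fibrillar chains, 9 FACIT chains, 6 type VI chains, 3 network-forming chains (types VIII and X), 3 transmembrane chains, 2 multiplexins and 2 others (types XXVI and XXVIII). The working name is broader than the interstitium, since the transmembrane chains Col13a1, Col23a1 and Col25a1 sit in cell membranes and the multiplexins Col15a1 and Col18a1 lie at basement membrane zones.

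The libraries were bulk RNA-seq of 7 cell populations sorted from dorsal skin at postnatal day 22. All came from the line K14-H2BGFP; Crabp1-GFP; Lef1-RFP with the genotype CD1, in which the keratin 14 promoter drives the histone label, and no label gives the sorting gates. DP is the dermal papilla, the mesenchymal cluster at the follicle base, Neg is a mixed fraction, BuSC and HGSC are the stem cells of the bulge and the germ, Epi is epidermal cells, Foll is epithelial cells of the upper hair follicle, and DF is dermal fibroblasts. Each population was taken from 4 skin sections, called zones 1 to 4, with 2 biological replicates, which gave 8 libraries a population and 56 in all. Zone is also what the labels enter as batch, which leaves the pair inseparable, and no label says where a zone lies or whether equal replicate numbers share animals.

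Collagens are secreted or membrane proteins whose chains wind into a triple helix. The fibrillar chains of types I, III and V build the fibres of the dermis. FACIT chains such as Col12a1, Col14a1 and Col16a1 decorate or link fibrils, and type VI chains form beaded microfibrils near cells. In skin, fibroblasts make most of the type I and type III collagen, while keratinocytes are better known for the basement membrane collagens that the rule leaves out.

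Promoter windows of 4 members are shown because the results turn on 2 pairs with opposite patterns, Col1a2 and Col3a1 of the fibroblasts and Col13a1 and Col23a1 of the dermal papilla. Each runs 5′ to 3′ on the gene's strand, from 250 bases before to 50 after the RefSeq start in GRCm38.p6, and capitals mark the motifs searched. Col1a2 is at chr6:4505368-4505667 (+), Col3a1 at chr1:45311288-45311587 (+), Col13a1 at chr10:61979059-61979358 (-) and Col23a1 at chr11:51289670-51289969 (+).
Col1a2: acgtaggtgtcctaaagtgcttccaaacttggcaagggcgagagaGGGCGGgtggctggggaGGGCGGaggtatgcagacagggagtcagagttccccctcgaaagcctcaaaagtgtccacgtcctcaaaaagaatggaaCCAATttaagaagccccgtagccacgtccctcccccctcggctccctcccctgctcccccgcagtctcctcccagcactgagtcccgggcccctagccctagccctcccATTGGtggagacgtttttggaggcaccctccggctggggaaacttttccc
Col3a1: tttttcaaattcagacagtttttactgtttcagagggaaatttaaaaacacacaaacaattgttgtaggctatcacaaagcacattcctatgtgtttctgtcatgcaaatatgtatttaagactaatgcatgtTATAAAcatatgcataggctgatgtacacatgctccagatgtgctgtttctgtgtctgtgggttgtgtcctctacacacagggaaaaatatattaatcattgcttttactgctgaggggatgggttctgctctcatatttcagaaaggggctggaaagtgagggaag
Col13a1: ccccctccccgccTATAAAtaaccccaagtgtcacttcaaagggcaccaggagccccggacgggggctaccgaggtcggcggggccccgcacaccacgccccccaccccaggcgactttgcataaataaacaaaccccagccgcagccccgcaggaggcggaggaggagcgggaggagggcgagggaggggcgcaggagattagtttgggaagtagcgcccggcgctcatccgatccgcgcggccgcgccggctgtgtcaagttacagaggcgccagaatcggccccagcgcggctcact
Col23a1: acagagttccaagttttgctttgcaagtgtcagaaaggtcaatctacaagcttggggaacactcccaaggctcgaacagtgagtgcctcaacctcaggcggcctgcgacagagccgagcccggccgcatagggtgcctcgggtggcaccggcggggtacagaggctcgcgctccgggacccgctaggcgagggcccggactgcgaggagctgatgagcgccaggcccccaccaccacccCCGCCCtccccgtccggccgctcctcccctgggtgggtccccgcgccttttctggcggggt
The motif CCAAT was searched with its reverse complement ATTGG, the motif TATAAA with its reverse complement TTTATA, and the motif GGGCGG with its reverse complement CCGCCC. No match overlaps another in these windows. RefSeq windows matched 28 of the 36 genes. CCAAT was in 25% of them against 39.0% of all 16480 windows, TATAAA in 14.3% against 11.3%, and GGGCGG in 60.7% against 49.9%. The Col1a2 window held 2 CCAAT and 2 GGGCGG, the Col3a1 and Col13a1 windows 1 TATAAA each, and the Col23a1 window 1 GGGCGG. These matches are letters in a window and were not compared with any binding measurement.

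Values are RPKM, read counts scaled to gene length and library depth, so that genes of different length can be compared. Library depth was 3.24 to 87.8 M reads with a median of 14.7 M. Replicates of a group correlated at 0.841 to 0.951. The closest library was of the same population for 52 of the 56, the exceptions being Foll zone 1 replicate 2, zone 3 replicate 2 and zone 4 replicate 2, and Epi zone 3 replicate 2. Single markers were high in the populations they are known from. Lef1 was at 293 to 373 RPKM in DP libraries and Krt5 at 2237 to 3927 in BuSC. Cd34 was at 37.7 to 109 in BuSC against 0.156 to 0.798 in HGSC. Krt10 was at 1360.4 to 2438 in Epi and Dcn at 2089 to 3149 in DF. Some lists of markers separated the populations less well. Summed bulge markers (5 genes) had a median of 2196 RPKM in BuSC and 2412 in Epi. Those of the hair germ (3 genes) ran from 117 to 195 in BuSC and 170 to 246 in HGSC. Epidermal markers (2 genes) ran from 615 to 3512 in Foll and 2288 to 3595 in Epi. In DP, the 7 fibroblast markers ranged from 0.611 to 195% of the DF mean with a median of 1.45%. Smooth muscle and pericyte markers summed to 596 to 1024 RPKM over 5 genes in DF libraries. Most of this was Acta2, Myh11 and Des, with DF means of 356, 325 and 114. Rgs5 and Cspg4 averaged 7.36 and 10.6 in DF and were higher in Neg, at 3688% and 178% of the DF mean. In sorted bulk RNA, fewer cells of a type and less RNA per cell cannot be told apart.

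Collagen RNA was most abundant in the dermal fibroblasts. The summed level of the 36 genes was 2642 ± 422 RPKM in DP, 9994 ± 2142 in Neg, 2290 ± 1914 in BuSC, 195 ± 73.9 in HGSC, 118 ± 41.1 in Epi, 441 ± 439 in Foll and 44312 ± 4261 in DF (SD, n = 8 each). That sum was 0.899% of all RPKM in DP, 3.15% in Neg, 0.701% in BuSC, 0.057% in HGSC, 0.0377% in Epi and 0.131% in Foll, against 15.1% in DF. Of the 30 members with a mean of at least 1 RPKM in some population, the highest mean was in DP for 4, Neg for 10, BuSC for 2, HGSC for 2, Epi for 3, Foll for 0 and DF for 9. A lone library weighed on each of 3 sums, and the sums, means and percentages given without it were chosen after seeing the data. The BuSC sum was 1634 ± 511 without zone 4 replicate 1, that of Foll 288 ± 90.8 without zone 1 replicate 1, and that of Epi 104 ± 14.5 without zone 1 replicate 1 (SD, n = 7 each).

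**Figure D1:**
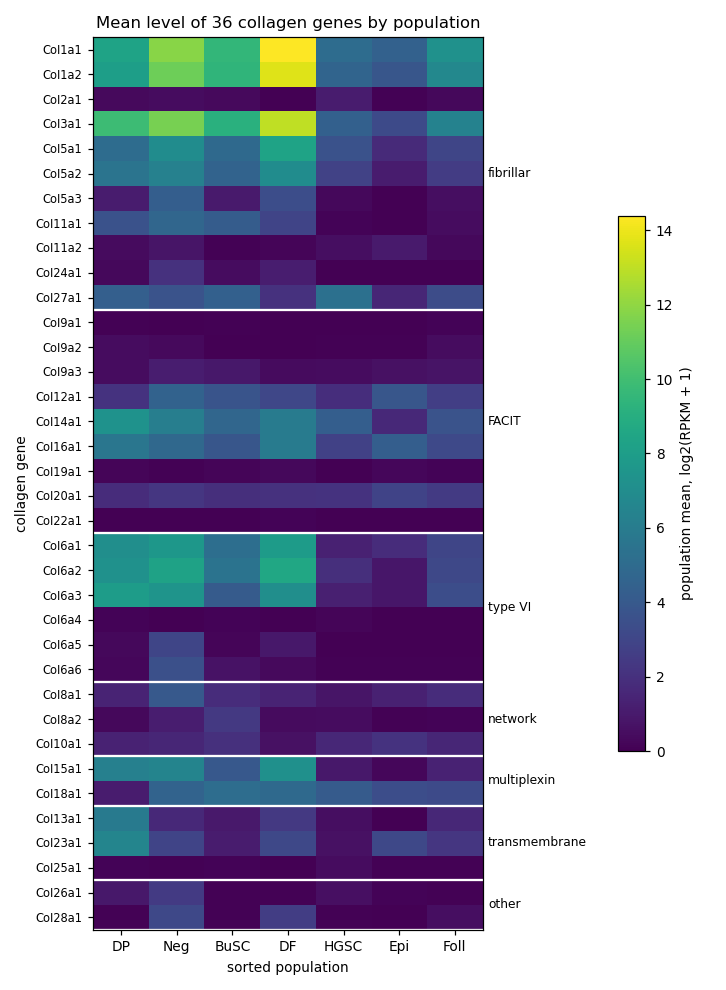
Population mean RPKM, coloured as log2(mean RPKM + 1), for each of the 36 collagen genes, by class down the page and by population across it, with 8 libraries a population and brighter colours for higher levels. The type I and type III chains are brightest in DF, Col13a1 and Col23a1 in DP, and the type VI chains Col6a5 and Col6a6 in Neg.

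The makeup of that RNA differed by population as well as its amount. Fibrillar chains were 62.1 ± 3.33% of the summed collagen RPKM in DP and 38.0 ± 15.4% in Epi, but 90.0 ± 1.6% in Neg, 89.0 ± 2.78% in BuSC and 97.5 ± 0.173% in DF (SD, n = 8 each). In DP the rest was type VI at 20.4 ± 2.06% against 1.71 ± 0.123% in DF, FACIT at 8.33% against 0.31%, and the transmembrane chains at 5.89 ± 1.08% against 0.0275 ± 0.00818%. Col3a1 was the leading chain of DP with 35.2% of its collagen RPKM against 18.9% in DF, whereas Col1a1 was 12.3% in DP against 48.3% in DF. Among epithelial cells, Col27a1 alone was 20.7 ± 6% of the collagen RPKM of HGSC, and Col16a1 and Col12a1 were 17.0% and 12.4% of that of Epi. Since Col1a1 is so abundant, the fibrillar share was also taken without it, which gave 56.8% in DP and 95.2% in DF. These shares are ratios within a library and do not depend on how libraries are scaled, and they are a description with no test.

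**Figure D2:**
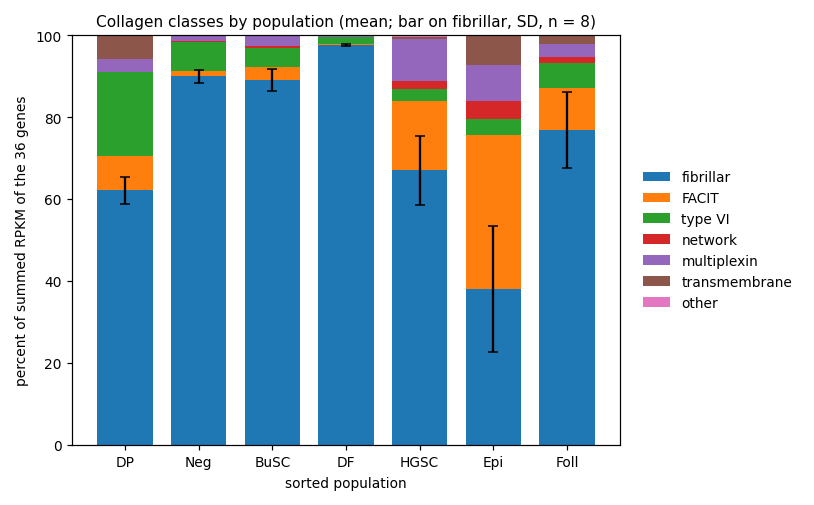
Share of the summed collagen RPKM by class in each population, as stacked means over 8 libraries, with the SD of the fibrillar share as a bar. The fibrillar part is 62.1% in DP and 97.5% in DF, and 38.0% in Epi.

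Of the 11 fibrillar chains, 4 passed as higher in DF than in each other population, namely Col1a1, Col1a2, Col3a1 and Col5a1. Col1a1, the alpha 1 chain of type I collagen, had lowest, median and highest values of 217, 322 and 452 RPKM in DP, 1987, 3789 and 5342 in Neg, 304, 552 and 2356 in BuSC, 8.96, 29.9 and 95.2 in HGSC, 7.4, 14.3 and 65.7 in Epi, 43.7, 91.3 and 630 in Foll, and 18166, 21550 and 24545 in DF. The DF libraries lay above every other library, and every Neg library lay above those of the remaining populations except the highest BuSC library. Col1a2, the alpha 2 chain that joins Col1a1 in the heterotrimer, followed with means of 270 ± 54.8 in DP, 2396 ± 563 in Neg, 685 ± 618 in BuSC and 12957 ± 1158 in DF. Col3a1, the chain of the type III homotrimer of young and pliable matrix, averaged 946 ± 297 in DP, 2719 ± 549 in Neg, 551 ± 498 in BuSC and 8360 ± 950 in DF. Col3a1 was higher in DP than in BuSC (1.05, adjusted p = 0.0197), though their libraries overlapped, while Col1a2 was lower in DP (-1.03, adjusted p = 0.0146) and Col1a1 was at -0.93 without passing (adjusted p = 0.0331). Col5a1 and Col5a2, chains of the type V collagen that starts fibrils, had means of 33.1 ± 4.76 and 46.1 ± 11.3 in DP against 327 ± 14.8 and 127 ± 8.56 in DF.

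In the comparison of the dermal papilla with dermal fibroblasts, 13 of the 31 members tested passed, as did 30.3% of all 16731 tested genes. Of these members 4 were higher in DP, where 24.2% of all were higher, and 9 were lower, where 6.13% of all were lower. A call here needed a Benjamini-Hochberg adjusted p under 0.05 in limma and a difference of at least 1 on the log2(RPKM + 1) scale. The members' median difference was -0.29 against 0.47 for all tested genes. Of the 11 fibrillar chains, 1 was higher and 6 were lower; of the 5 type VI chains tested, 0 were higher and 1 was lower; and both transmembrane chains tested were higher. The libraries of DP and DF did not overlap for any of the 13 called members, as for 24.3% of all tested genes. Scaling moved the median of all genes, to 0.08 with quantile and 0 with median-of-ratios scaling, and of all called genes 44.0% and 33.7% were then higher in place of 79.8%. Under quantile scaling the members had 3 calls up and 12 down with a median of -0.78, and under median-of-ratios scaling 3 up and 14 down with -0.96.

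The 4 members that rose in DP were Col13a1, Col23a1, Col27a1 and Col14a1. Col13a1, a transmembrane collagen of cell adhesion sites, had 43.6, 58.2 and 76.1 RPKM (lowest, median, highest) in DP against 3.09, 3.58 and 6.98 in DF, a log2 difference of 3.53 ± 0.31 (SE, adjusted p = 9.5e-12). Col23a1, the other transmembrane chain expressed, had 69.9, 90.2 and 120 in DP against 4.71, 7.4 and 10.6 in DF, with a difference of 3.43 ± 0.25 (adjusted p = 8.88e-14). For both, the lowest DP library lay far above the highest DF library. Col27a1, a fibrillar chain first known from cartilage, had 15.6, 17.9 and 26.6 in DP against 1.73, 3.44 and 4.61 in DF (2.32 ± 0.27, adjusted p = 4.49e-09). Col14a1, a FACIT chain found on the surface of type I fibrils, had 114, 161 and 230 in DP against 38.2, 55.6 and 96 in DF (1.36 ± 0.26, adjusted p = 3.84e-05). The call on Col14a1 ended under both other scalings, with differences of 0.91 under quantile scaling and 0.48 under median-of-ratios scaling (adjusted p = 0.173).

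The 9 members that fell in DP were led by the type I chains, at -6.07 ± 0.35 for Col1a1 (adjusted p = 3.12e-16) and -5.60 ± 0.34 for Col1a2 (adjusted p = 1.16e-15). Col18a1, a multiplexin whose end fragment is endostatin, had 0.43, 1.26 and 2.06 RPKM in DP against 19.4, 29.3 and 35 in DF (-3.83 ± 0.20, adjusted p = 1.71e-17). Col18a1 passed as lower in DP against each of the other 6 populations, whose means ran from 8.53 to 34.1. Col5a1 fell by 3.28 on the log2 scale, Col3a1 by 3.20, Col5a3 by 2.33 and Col5a2 by 1.47. Col28a1, a collagen best known from peripheral nerve, was close to 0 in DP at 0.0735 ± 0.0799 RPKM against 5.07 ± 1.34 in DF (-2.47 ± 0.18). The call on Col3a1 ended under quantile scaling (-0.87, adjusted p = 0.0513).

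Type VI chains differed less between DP and DF than the type I chains did. Col6a3, the large alpha 3 chain of its microfibrils, had 159, 245 and 367 RPKM in DP against 114, 134 and 162 in DF, with overlapping libraries and a difference under the minimum for a call (0.85 ± 0.33, adjusted p = 0.0333). Col6a1 averaged 136 ± 40.5 in DP against 241 ± 21.3 in DF (-0.87 ± 0.28, adjusted p = 0.0101). Col6a2 was the chain of the 3 that passed, at 157 ± 30.4 in DP against 374 ± 29.6 in DF (-1.27 ± 0.29, adjusted p = 0.000386). With median-of-ratios scaling Col6a1 passed as well, as lower in DP. Against the germ stem cells next to the papilla, 14 members were higher in DP (12% of all tested genes were) and 1 was lower (15.9% were), with a median of 0.68 against -0.09 for all; median-of-ratios scaling left those counts at 14 and 1, while the share higher among all called genes was 54.5% in place of 42.9%. The largest differences there were in Col6a3 at 6.87 ± 0.33, Col23a1 at 5.96 ± 0.25 and Col6a1 at 5.90 ± 0.28. Col18a1 was the member that fell, by 3.05 on the log2 scale, and Col27a1 averaged 19.6 ± 4.01 in DP and 38.7 ± 17 in HGSC without passing (-0.88 ± 0.27).

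**Figure D3:**
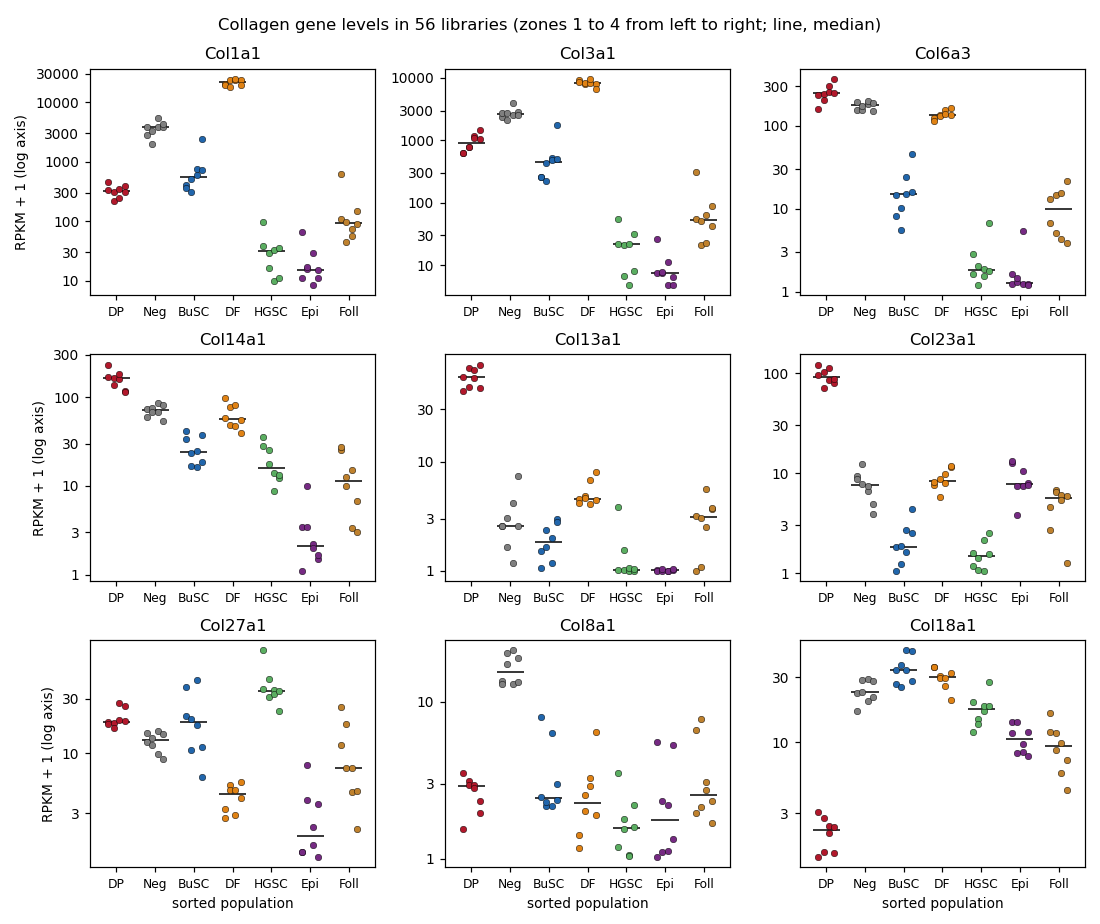
RPKM of 9 collagen genes in each of the 56 libraries, by population, on a log axis of RPKM + 1, with zones 1 to 4 from left to right within a population and the median as a line. The 8 DP libraries stand apart for Col13a1 (43.6 to 76.1 RPKM) and Col23a1 (69.9 to 120), the DF libraries for Col1a1 (18166 to 24545), and the Neg libraries for Col8a1 (12.0 to 20.3).

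In the mixed fraction the type I and type III chains were lower than in DF, and Col6a5, Col6a6 and Col8a1 were higher. Against DF, 7 of 31 members were higher in Neg, where 23.9% of all tested genes were, a share near that of the members, and 5 were lower, where 2.16% of all were. With a pseudocount of 0.1 or with voom on read counts, 12 members were higher, and of all tested genes 5625 and 6077 were, in place of 4007. The members' median was 0.35 and that of all tested genes 0.58, and no called member overlapped between the populations (21.5% of all tested genes did not). Col6a6 and Col6a5, the alpha 6 and alpha 5 chains of type VI collagen, had 3.6, 11.4 and 17 and 4.5, 6.84 and 10.5 RPKM in Neg, against 0.023, 0.328 and 0.488 and 0.256, 0.675 and 2.77 in DF. Their differences were 3.02 ± 0.16 (adjusted p = 5.94e-17) and 2.13 ± 0.14 (adjusted p = 1.62e-14). Col8a1, a network-forming chain known from vessel walls and the cornea, had 12, 14.6 and 20.3 in Neg against 0.171, 1.27 and 5.42 in DF (2.77 ± 0.37, adjusted p = 1.58e-07).

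The other members higher in Neg were Col26a1 at 2.15 ± 0.20, Col11a1 at 1.94 ± 0.24, Col27a1 at 1.63 ± 0.27 and Col12a1 at 1.46 ± 0.19. Col11a1, a fibrillar chain that controls fibril diameter, averaged 26.1 ± 6.03 RPKM in Neg against 6.63 ± 3.49 in DF. Those that fell were Col1a1 by 2.60, Col1a2 by 2.46, Col3a1 by 1.63, Col5a1 by 1.36 and Col16a1 by 1.14 on the log2 scale, with adjusted p of 0.000295 or less. The abundant type VI chains did not pass, with Col6a1 at 198 ± 31.5 in Neg and 241 ± 21.3 in DF, and Col6a3 at 174 ± 19.8 in Neg and 136 ± 15.9 in DF. With median-of-ratios scaling Col6a1 and Col6a2 did pass, as lower in Neg than in DF. Under quantile scaling 5 members were higher and 6 lower, under median-of-ratios scaling 5 and 12, and of all called genes 51.8% and 59.7% were higher in place of 91.7%. Under quantile scaling Col3a1 turned to 0.04 (adjusted p = 0.966) and Col1a1 and Col1a2 lost their calls at -0.92 and -0.69, and Col27a1 and Col12a1 lost theirs under quantile (0.94 and 0.78) and median-of-ratios scaling (0.95 and 0.70).

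Markers of many cell types stood beside these values in Neg. The summed level of 7 fibroblast markers was 2096 to 2994 RPKM in Neg against 3848 to 5750 in DF, that of 4 immune markers 814 to 1278 against 10.5 to 32.1, that of 4 endothelial markers 111 to 174 against 1.57 to 6.65, and that of 4 tendon markers 110 to 222 against 24 to 132. Among the tendon markers, Tnmd, Kera and Fmod were at 208, 255 and 311% of the DF mean in Neg, but Scx was at 45.6%. Every gene of those 4 lists had a mean of at least 1 RPKM in Neg. Their part in the collagen values was not tested.

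The bulge stem cells, which are keratinocytes, had far less fibrillar collagen RNA than the fibroblasts, but not none. Against DF, 3 members were higher in BuSC (31.2% of all tested genes were) and 15 were lower (8.18% were), with a median of -0.69 against 0.48 for all. Members called higher numbered 2 under either other scaling, and those called lower 16 (quantile) and 18 (median-of-ratios), while the share higher among all called genes was 48.9% and 39.0% in place of 79.2%. Col1a1 fell by 5.14, Col1a2 by 4.57, Col3a1 by 4.24, Col5a1 by 3.58 and Col15a1 by 3.46 on the log2 scale. The 3 that rose were Col27a1, at 5.16, 17.9 and 42.5 RPKM in BuSC against 1.73, 3.44 and 4.61 in DF (2.12 ± 0.27, adjusted p = 1.83e-08), Col8a2, a network-forming chain, at 1.78, 4.34 and 7.78 in BuSC against 0, 0.192 and 1.21 in DF (1.93 ± 0.19, adjusted p = 1.04e-10), and Col10a1 at 3.05 ± 2.34 against 0.574 ± 0.304 (1.14 ± 0.26). Col18a1 was at 34.1 ± 8.53 in BuSC and 29.1 ± 5.1 in DF, a difference of 0.21 ± 0.20 that did not pass.

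Against the germ stem cells, the other stem cell pool of the follicle, 13 members passed, as did 5.85% of all tested genes: 12 were higher in BuSC (3.82% of all tested genes were) and 1 was lower (2.03% were), with a median of 0.62 against -0.04 for all. Of 11 fibrillar chains, 6 were higher and 1 was lower, and 3 of 5 type VI chains were higher. Col3a1 differed by 4.77 ± 0.36 (551 ± 498 RPKM in BuSC and 20.3 ± 16.2 in HGSC), Col1a2 by 4.63 ± 0.34 and Col1a1 by 4.52 ± 0.35 (adjusted p = 3.81e-12). The type I and type III libraries of the 2 pools did not overlap, as for 2.95% of all tested genes. Col11a1, which was at 0.115 ± 0.15 RPKM in HGSC, had a mean of 17.3 ± 17.6 in BuSC that fell to 11.2 without zone 4 replicate 1. Col27a1 was the member lower in BuSC, with 5.16, 17.9 and 42.5 RPKM there against 22.3, 34.3 and 78.3 in HGSC (-1.08 ± 0.27, adjusted p = 0.00455). These libraries overlapped, and the difference was under 1 when any of BuSC zone 1 replicate 1, zone 2 replicate 1, zone 3 replicate 1, zone 4 replicate 2 or HGSC zone 1 replicate 2 was left out (-0.98 to -0.92). It was also under 1 with median-of-ratios scaling (-0.97), a pseudocount of 5 (-0.90) and voom on read counts (-0.98), and adjusted p over all planned settings other than a library left out was 0.000817 to 0.0226.

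Fibroblast markers and 3 of 4 tendon markers were also higher in BuSC than in HGSC on average. The 7 fibroblast markers summed to 360, 727 and 2927 RPKM (lowest, median, highest) in BuSC against 19, 57.4 and 89.2 in HGSC, and all 7 had a mean of at least 1 RPKM in BuSC against 5 of 7 in HGSC. The 4 tendon markers summed to 102, 218 and 842 in BuSC against 7, 12.8 and 23.7 in HGSC, while the endothelial sum was 0.855 to 10.7 and the immune sum 0.922 to 16.5 in BuSC. As a percentage of the DF mean, the 12 collagen genes with at least 10 RPKM in DF ranged from 3.50 to 117 in BuSC with a median of 11.7. The lowest were Col1a1 at 3.50, Col1a2 at 5.28 and Col3a1 at 6.59, and the highest was Col18a1 at 117. The 7 fibroblast markers ranged from 4.71 for Lum to 41.8 for Thy1, with Dcn at 23.9, and the tendon markers Tnmd, Kera and Fmod stood at 336, 509 and 381. The fourth tendon marker, Scx, went the other way between the stem cell pools, at 197% of the DF mean in BuSC and 308% in HGSC. Without BuSC zone 4 replicate 1 these percentages were 2.43, 3.65 and 4.55 for Col1a1, Col1a2 and Col3a1, 16.6 for Dcn and 225, 340 and 276 for Tnmd, Kera and Fmod. Percentages of the DF mean are of RPKM as deposited and depend on scaling. Median-of-ratios factors were 0.545 to 0.612 in DF and 1.12 to 1.26 in BuSC, and were above those of DF in every other population. Division by these factors would lower each percentage. The part of the fibroblast and tendon markers in the collagen result was not tested.

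**Figure D4:**
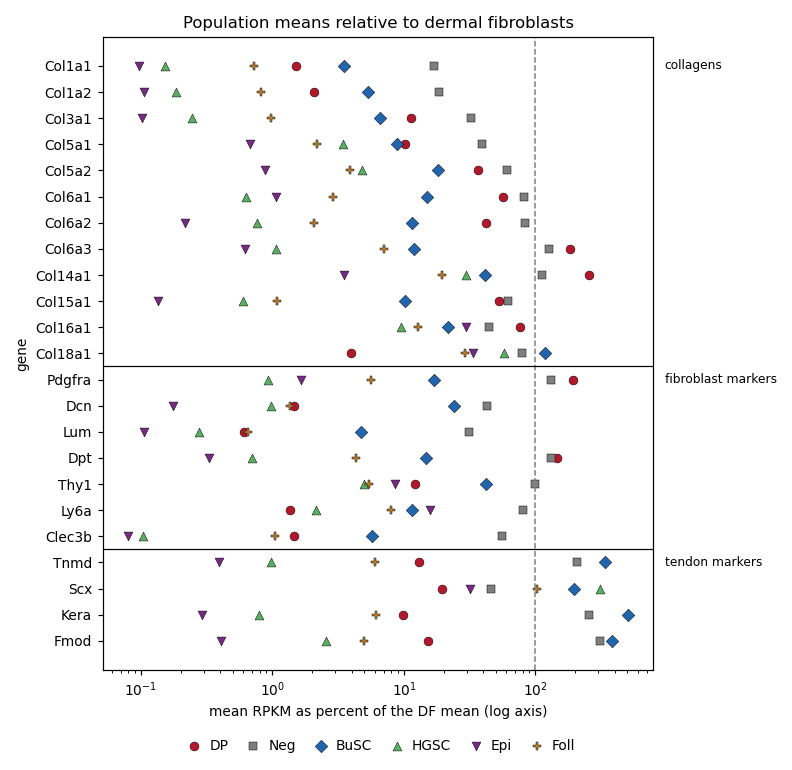
Mean level in each population as a percentage of the DF mean, on a log axis, for the 12 collagen genes with at least 10 RPKM in DF, 7 fibroblast markers and 4 tendon markers. Values are RPKM as deposited, and the percentages depend on scaling. In BuSC the collagen genes spread from 3.50 to 117% and the tendon markers from 197 to 509%, and Scx is higher in HGSC, at 308%.

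In the epidermis against the upper follicle, 13 members passed, as did 7.79% of all tested genes: 2 were higher in Epi (1.92% of all tested genes were) and 11 were lower (5.86% were), and the median was -0.37 against -0.09 for all. The counts were 2 and 10 with quantile and 3 and 10 with median-of-ratios scaling, where 42.5% and 38.0% of all called genes were higher in place of 24.7%. Col12a1, a FACIT chain that links fibrils, had 9.87, 13.6 and 18.1 RPKM in Epi against 2.64, 4.99 and 9.23 in Foll, without overlap (1.23 ± 0.19, adjusted p = 1.67e-05). Col16a1, a FACIT chain known from the junction of epidermis and dermis, had 12.8, 18.2 and 26.5 in Epi against 5.48, 6.74 and 16.1 in Foll (1.15 ± 0.18, adjusted p = 1.93e-05), and its difference was 0.99 without Foll zone 4 replicate 1. All 11 that fell overlapped between the populations, as most genes did, since 1.46% of all tested genes did not overlap. The members that fell were led by Col3a1 at -2.80 ± 0.36, Col1a2 at -2.67 ± 0.34, Col1a1 at -2.62 ± 0.35 and Col6a3 at -2.48 ± 0.33. The type I and type III calls ended with limma's voom method on read counts (adjusted p = 0.162 to 0.263), and with a pseudocount of 5 the comparison called 5 members in place of 13. Without Foll zone 1 replicate 1, the Foll means were 87.5 for Col1a1 in place of 155, 64.6 for Col1a2 in place of 105 and 48.3 for Col3a1 in place of 80.9. Fibroblast markers summed to 42 to 149 RPKM in Epi and 39 to 296 in Foll, and their part in the result was not tested.

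A signature required a member to pass against each of the other 6 populations, and 12 members did so. They were Col13a1, Col23a1 and Col14a1 for DP (3.17% of all tested genes were in the DP signature), Col1a1, Col1a2, Col3a1 and Col5a1 for DF (1.35%), Col6a5, Col6a6, Col8a1 and Col26a1 for Neg (4.48%) and Col8a2 for BuSC (0.287%). No member passed for HGSC (0.436%), Epi (0.938%) or Foll (0.454%). The smallest margins were those of Col14a1 over Neg at 1.15, Col8a2 over Neg at 1.26, Col5a1 over Neg at 1.36 and Col26a1 over DP at 1.49 on the log2 scale. Neg was the closest population for all 4 of the DF chains. Under quantile scaling 8 of the 12 were kept, with Col14a1, Col1a1, Col1a2 and Col3a1 lost. The 3 others added were Col5a2 and Col15a1 for DF and Col11a1 for Neg. Under median-of-ratios scaling 11 were kept, with Col14a1 lost. The 6 others added there were Col5a2, Col6a1, Col6a2, Col15a1 and Col16a1 for DF and Col11a1 for Neg. With a pseudocount of 5 Col26a1 and Col8a2 were lost. The widest margins were those of Col13a1 at 3.53 and Col23a1 at 3.43, both over DF.

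The remaining 12 members were low throughout. Their means ran from 0.000888 RPKM for Col2a1 in DF to 6.48 for Col20a1 in Epi, and 6 members of the 36 were below 1 RPKM in every population. Col2a1, the cartilage fibrillar chain, had its highest mean in HGSC at 1.15 ± 0.978, with libraries from 0.0199 to 2.51. Col6a4, Col9a1, Col19a1, Col22a1 and Col25a1 were not tested, because fewer than 2 libraries reached 1 RPKM. Col15a1 and Col16a1, which were not in a signature without rescaling, had their highest means in DF, at 146 ± 11.9 and 63.4 ± 7.85.

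Ratios between chains of a molecule or of neighbouring types, which do not depend on scaling, were compared between DP, Neg, BuSC and DF. Col3a1 over Col1a1 set DP apart, and so did Col6a3 over Col6a1. The latter was 1.43 to 2.31 in DP, with highest values of 1.01 in Neg, 0.604 in BuSC and 0.648 in DF. For Col5a2 over Col5a1, the DP libraries (1.03 to 1.75) overlapped those of BuSC (0.356 to 1.27). DP and BuSC lay close in the other ratios. Their geometric means were 1.19 and 1.11 for Col1a1 over Col1a2, and 0.851 and 0.825 for Col6a1 over Col6a2. Col3a1 over Col1a1 had lowest, median and highest values of 1.40, 3.40 and 4.46 in DP, 0.601, 0.744 and 1.06 in Neg, 0.643, 0.711 and 0.839 in BuSC, and 0.338, 0.379 and 0.471 in DF. Every DP library was above 1 and every DF library below the lowest of the other 3 populations. The log2 difference from DF was 2.88 for DP, 0.97 for Neg and 0.90 for BuSC, each with an adjusted p of 0.000233 in the exact permutation test (two-sided, n = 8 against 8). The unadjusted p of these was 0.000155, the smallest that 12870 splits can give, and adjustment was over 15 tests.

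The type I heterotrimer holds more alpha 1 than alpha 2 chains, and Col1a1 over Col1a2 was 1.06, 1.21 and 1.35 in DP, 1.23, 1.52 and 1.69 in Neg, 0.936, 1.10 and 1.33 in BuSC and 1.44, 1.66 and 1.83 in DF. DP and BuSC differed from DF by -0.47 and -0.57 on the log2 scale (exact permutation, adjusted p = 0.000233 for both). Neg differed by -0.14 (exact permutation, adjusted p = 0.041), and 9 of the 16 libraries of Neg and DF ended that call when left out (adjusted p = 0.0569 to 0.0847).

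Col5a2 over Col5a1 had geometric means of 1.37 in DP, 0.607 in Neg, 0.777 in BuSC and 0.386 in DF, and DP differed from DF by 1.83 (exact permutation, adjusted p = 0.000233). The alpha 1 and alpha 2 chains of type VI collagen varied less, with geometric means of Col6a1 over Col6a2 of 0.851 in DP, 0.632 in Neg, 0.825 in BuSC and 0.644 in DF. The difference of Neg from DF did not pass (-0.03, exact permutation, adjusted p = 0.691), while DP differed by 0.40 (exact permutation, adjusted p = 0.000233) and BuSC by 0.36 (exact permutation, adjusted p = 0.00127). Col6a3 over Col6a1 varied more, at 1.86 in DP, 0.883 in Neg, 0.405 in BuSC and 0.564 in DF. It was 1.72 higher on the log2 scale in DP and 0.65 higher in Neg than in DF (exact permutation, adjusted p = 0.000233 for both), and differed by -0.48 in BuSC (exact permutation, adjusted p = 0.0122). This ratio was above that of DF in DP and below it in BuSC.

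**Figure D5:**
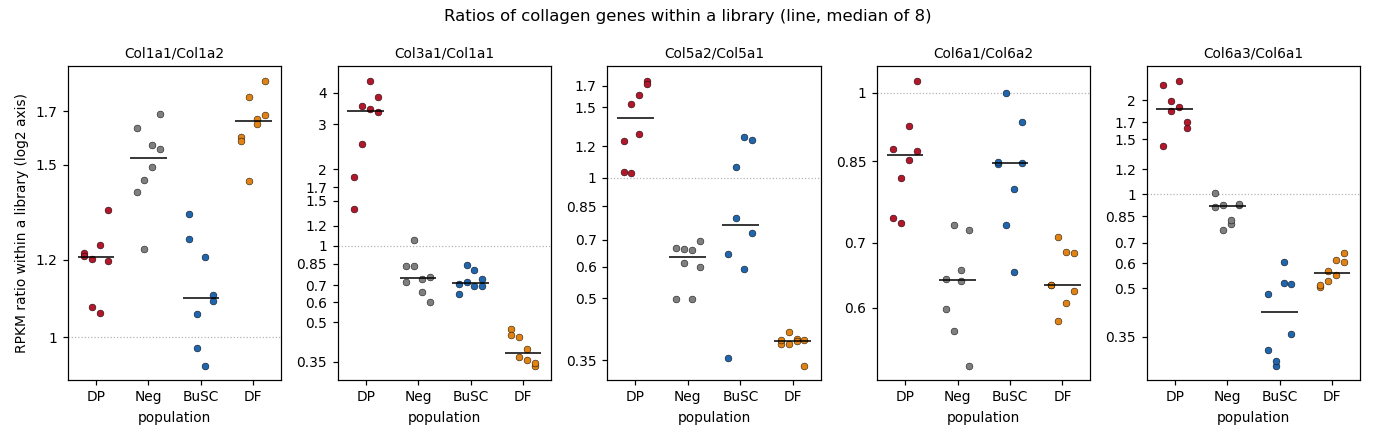
The 5 chain ratios (log axis) in each library of DP, Neg, BuSC and DF, with the median of 8 as a line. Col3a1 over Col1a1 is 1.40 to 4.46 in DP and 0.338 to 0.471 in DF.

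Few collagens passed the test between zones. Within Neg, 2 members passed the moderated F test over zones (1.01% of all tested genes passed), and within Foll 2 did (1.03%). In DP (0.43%), BuSC (0.359%), HGSC (0.137%), Epi (1.79%) and DF (0.197%) 0 members passed. The differences in zone trend had 0 members for DP against DF (0.0837% of all), for BuSC against HGSC (0.0179%) and for Epi against Foll (0.544%). With limma's voom method on read counts, 1 member passed in DP and 0 in the other 6 populations. At an unadjusted p under 0.05, the F test took 2 of the 31 members in DP (5.04% of all tested genes), 5 in Neg (7.11%), 14 in BuSC (8.45%), 4 in HGSC (5.82%), 3 in Epi (15.6%), 15 in Foll (14.2%) and 3 in DF (2.86%). The trend differences took 1 for DP against DF (3.44%), 10 for BuSC against HGSC (6.11%) and 2 for Epi against Foll (12%).

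The Neg trends ran in opposite directions. Col6a6 in Neg had 4.74 and 3.6 RPKM in zone 1, 10.8 and 8.54 in zone 2, 17 and 11.9 in zone 3, and 13.6 and 12.7 in zone 4, a trend of 0.49 log2 per zone step (F test adjusted p = 0.01). Col26a1 in Neg had 6.37 and 6.6 in zone 1, 5.92 and 9.06 in zone 2, 3.5 and 2.34 in zone 3, and 1.12 and 1.1 in zone 4, a trend of -0.66 (adjusted p = 0.00995). The zone 1 libraries were the lowest for Col6a6 and the zone 4 libraries the lowest for Col26a1. The call on Col6a6 ended without Neg zone 1 replicate 2 (adjusted p = 0.213), and that on Col26a1 without zone 4 replicate 1 (0.0611) or replicate 2 (0.0648).

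In Foll, Col14a1 had 24.4 and 26.4 RPKM in zone 1, 11.8 and 8.92 in zone 2, 14.3 and 2.34 in zone 3, and 5.75 and 2.01 in zone 4 (trend -0.83, adjusted p = 0.0319). Col27a1 had 11 and 24.3 in zone 1, 17 and 6.47 in zone 2, 6.4 and 3.6 in zone 3, and 3.67 and 1.17 in zone 4 (trend -0.83, adjusted p = 0.0345). Both were highest in zone 1 on average, and replicates lay far apart in some zones, as Col14a1 did in zone 3. The call on Col14a1 ended without zone 1 replicate 1, zone 1 replicate 2 or zone 4 replicate 2 (adjusted p = 0.0564 to 0.106), and that on Col27a1 without zone 1 replicate 2, zone 4 replicate 1 or zone 4 replicate 2 (0.0505 to 0.117). Foll zone 1 replicate 2, zone 3 replicate 2 and zone 4 replicate 2 were closest to libraries of other populations, and without those and Epi zone 3 replicate 2 the F test called 8 members in Foll and 3 in Epi. These counts stand without the share of all tested genes in that setting, so they cannot be read as particular to collagens.

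The type I and type III chains did not pass the F test in any population. Col1a1 had zone means of 19507, 20649, 24184 and 21403 RPKM in DF, from zone 1 to zone 4. Col3a1 in DP had 632 and 622, 768 and 784, 1179 and 1070, and 1474 and 1036 in the same order, which did not pass (trend 0.35 ± 0.23 log2 per step, adjusted p = 1). In BuSC, Col1a1 had zone means of 385, 409, 666 and 1542, and 4 other members had a linear trend with an adjusted p under 0.05 (0.616% of all tested genes did) while the F test did not pass. Those were Col11a1 at 0.71 (F test adjusted p = 0.0786), Col10a1 at 0.69 (0.132), Col16a1 at 0.51 (0.0905) and Col6a6 at 0.44 (0.0527). BuSC zone 4 replicate 1, the library with the highest summed fibroblast and tendon markers, was the highest for Col11a1 at 59.4 RPKM, against 13.4 in zone 4 replicate 2.

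Most of the genes that make and finish collagen that passed against DF were lower, as the type I chains were. Of 33 genes for synthesis and processing, 32 were tested, and against DF 3 were higher in DP and 12 lower (24.2% and 6.13% of all tested genes), 3 and 11 in Neg (23.9% and 2.16%), and 2 and 18 in BuSC (31.2% and 8.18%). Against HGSC, 13 were higher in BuSC and 0 lower (3.82% and 2.03% of all), and 18 were higher in DP and 2 lower (12% and 15.9%). Against Foll, 2 were higher in Epi and 4 lower (1.92% and 5.86%). Plod2, the lysyl hydroxylase of the telopeptides, went against the direction of most in DP with 31.3 RPKM against 2.96 in DF (3.23, adjusted p = 4.13e-10). P4ha3, a prolyl hydroxylase subunit, averaged 6.62 in DP against 0.627 in DF with overlapping libraries, and Plod3 26.5 against 10.2. Sparc, a collagen-binding matricellular protein, averaged 371 in DP, 4687 in Neg and 1093 in BuSC against 20978 in DF. Pcolce2, an enhancer of propeptide cleavage, averaged 1.82 in DP against 177 in DF (-6.49), Creb3l1, a transcription factor of secretory cells that acts on type I collagen in bone, 19.2 against 301 (-3.97), and the cross-linking enzyme Lox 6.01 against 88.6 (-3.81). In BuSC, the prolyl 3-hydroxylase P3h2 rose to 40.4 RPKM against 3.44 in DF.

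Of 10 collagen receptor genes 9 were tested, with 1 higher and 2 lower in DP against DF, 1 and 1 in Neg, and 2 and 4 in BuSC. Of all tested genes, 24.2% were higher and 6.13% lower in DP, 23.9% and 2.16% in Neg, and 31.2% and 8.18% in BuSC. The counts of higher receptors, out of 9, are too small to set apart from the general share. Ddr1, the discoidin receptor typical of epithelium, averaged 5.76 in DP, 5.42 in Neg and 23 in BuSC against 1.98 in DF. Ddr2, its mesenchymal counterpart, averaged 53.9 in DP against 0.466 in HGSC (5.25), whereas the collagen-binding integrin chain Itga2 averaged 0.494 in DP against 20.4 in HGSC (-3.81). The endocytic collagen receptor Mrc2 averaged 31.5 in DP against 0.652 in HGSC (4.35).

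Over the 28 group means of log2(RPKM + 1), the genes most like Col1a1 were Col1a2 (Pearson r = 0.998), Col3a1 (0.967) and Col5a1 (0.945). Col13a1 was most like Col23a1 (0.834), Col6a3 (0.742) and Col14a1 (0.712), and Col14a1 most like Col5a2 (0.871). Col6a5 and Col6a6 were most like each other (0.924). Col8a2 had no close counterpart, its highest value being 0.585 with Col11a1. The group means share libraries and depth between genes, so these values describe the pattern and carry no p. Some like pairs are neighbours in the genome (GRCm38, GENCODE M21): Col6a6 and Col6a5 lie 27917 bases apart on chromosome 9, Col6a2 and Col6a1 85161 bases apart on chromosome 10, and Col3a1 and Col5a2 24614 bases apart on chromosome 1 in opposite directions. Col1a1 (chromosome 11, 94936224 to 94953042) and Col1a2 (chromosome 6, 4504814 to 4541544) lie on different chromosomes.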

How the data were processed

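The deposited table holds RPKM per gene for 56 libraries, computed by the authors. Tools listed in the submitters' processing notes are STAR 2.4.0, featureCounts, limma, edgeR, DESeq2, with the build mm10. Per the labels' protocols, RNA of integrity 8.8 or higher entered amplification at 6 ng. No label gives the counting strand, which leaves overlapping and antisense genes unresolved. Every column was matched to a sample by name. For 22229 of the 22233 genes above 0, values were whole multiples of 1 read within 0.02 reads, which gave the depths and served the voom alternative (16727 genes). Genes with 1 RPKM or more in at least 2 libraries were tested, 16731 in all.

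One limma 3.58.1 model (R 4.3.3) was fitted to log2(RPKM + 1) with a mean for each of 28 groups, a variance trend and 28 residual degrees of freedom. Differences are on that scale, which understates changes of low genes. Two-sided p-values were adjusted by Benjamini-Hochberg over all tested genes, and a call between populations also needed a difference of at least 1. Several comparisons share DF, HGSC or DP libraries. Zones were tested by the moderated F statistic and a linear trend with weights of 3 and 1 over 10. Chain ratios used RPKM within a library and exact permutation of 8 against 8 libraries. That permutation was coded in Python and checked against scipy 1.17.1 on simulated numbers. Population comparisons take 4 zones with 2 replicates each as n = 8. In the limma model their p-values measure the spread between replicates within zones. The exact permutation of chain ratios ran across zones, so its p-values also take in the spread between zones.

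The members, classes, gene lists and comparisons were chosen with earlier results of these data known. Described in full were the members of the ratios, the 3 highest members in each population, members in signatures, up to 8 called members per direction with a mean of at least 5 RPKM, and members called between zones, 24 in all; genes of the synthesis and receptor lists were named by size of change, up to 4 per direction. Alternatives were pseudocounts of 0.1 and 5, no filter, quantile and median-of-ratios scaling, voom, replicate blocks and each library left out. The fitting code was tested on simulated data. Python 3.11.15, numpy 2.4.6, pandas 2.3.3 and matplotlib 3.10.9 were used.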

Additional observations from a re-analysis of the deposited data

Results flagged for a closer look

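In groups of 8 libraries, the highest or lowest library was compared with its nearest neighbour, as a share of the group's range. For members with a mean of at least 5 RPKM and for the summed level, 12 of 103 groups (11.7%) passed Dixon's 95% critical value, where chance gives about 1 in 20.

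In BuSC, zone 4 replicate 1 stood apart as the highest of 8 libraries for Col1a1 at 2356 RPKM, Col1a2 at 2163, Col3a1 at 1747, Col5a1 at 67.9 and the summed level of the 36 genes at 6879. The same library had the highest BuSC values of the fibroblast markers Dcn at 1965 and Lum at 126, and of the tendon markers Tnmd at 244, Kera at 309 and Fmod at 286, but the lowest BuSC value of the tendon marker Scx, at 2.23. The part of these markers in the collagen values was not tested.

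In Foll, zone 1 replicate 1 was the highest for Col1a1 at 630 RPKM, Col5a1 at 24.0 and the summed level at 1507, and also for Dcn at 121 and Lum at 23.2. Foll zone 4 replicate 2 was the highest for Col16a1 at 16.1. In Epi, zone 1 replicate 1 had the highest summed level at 214 and zone 2 replicate 1 the lowest Col23a1 at 2.80 RPKM. In DF, zone 4 replicate 2 had the lowest Col5a2 at 108.5.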

How the results depend on the processing

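Of the counts, ratios and shares reported, 151 of 176 recomputed values were within 1.5 times of the reported count, kept their side of the threshold or moved by less than 1 SD; the cause of the other changes was not tested. With a pseudocount of 0.1, zones called 0 members in Neg, 0 in Foll and 2 in Epi. With a pseudocount of 5, Epi against Foll called 5 members, zones called 4 in BuSC and 1 in Foll, and the trend difference of BuSC against HGSC 1. By direction, a pseudocount of 0.1 and voom each gave 12 members higher in Neg and 5 higher in BuSC against DF, and 2 lower in DP against HGSC. Of all tested genes, these 2 settings gave 5625 and 6077 higher in Neg, 6161 and 6477 higher in BuSC, and 3277 and 3406 lower in DP. Voom gave 19 members higher and 0 lower in BuSC against HGSC (951 and 650 of all). Median-of-ratios scaling gave 0 lower in BuSC against HGSC (257 of all) and 12 lower in Neg against DF (1153 of all). A pseudocount of 5 gave 1 higher in BuSC against DF, 0 lower in BuSC against HGSC and 0 higher in Epi. Without a filter, zones called 2 in DF and 2 in BuSC, and the trend difference of DP against DF 1. Zones called 1 in Foll with quantile scaling, 1 in DF and 0 in Foll with median-of-ratios scaling, and 1 in DP, 0 in Neg and 0 in Foll with voom. Without the 4 libraries closest to another population, a setting chosen after seeing the data, zones called 8 in Foll and 3 in Epi. The zone counts of these settings stand without the share of all tested genes, so they cannot be read as particular to collagens. Without Col1a1 the fibrillar share was 56.8% in DP, 84.4% in Neg, 83.9% in BuSC, 66.9% in Foll and 95.2% in DF. Col3a1 in Neg against DF turned to 0.044 (log2) with quantile scaling.

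Replicate numbers gave little sign of pairing. Over 84 pairs of populations within a zone, the differences between replicates correlated at -0.028 to 0.085, with 0 over 0.1. With 2 replicates this cannot tell whether equal numbers share animals. A replicate block left every count between populations as reported and gave 1 member in BuSC and 1 in Epi between zones; a block within zones gave 3 in Foll.

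Leaving out each library gave -0.17 to -0.10 for Col1a1 over Col1a2 and -0.057 to 0.012 (log2) for Col6a1 over Col6a2 in Neg against DF, the last without Neg zone 4 replicate 2. Zones then called 1 to 3 members in Neg, 0 to 3 in BuSC, 1 to 5 in Foll and 0 to 2 in Epi, and the trend differences 0 to 3 for BuSC against HGSC and 0 to 1 for Epi against Foll. Total counts between populations stayed within 1.5 times when any library was left out, but the members lower in BuSC against HGSC numbered 0 to 1, those lower in DP against HGSC 1 to 2, and those higher in Epi against Foll 1 to 3. The 5 in Foll came without Foll zone 3 replicate 2, the 3 in BuSC without zone 3 replicate 1 or without zone 4 replicate 2, and the trend difference of 3 without BuSC zone 4 replicate 2. The library with 3.24 M reads limits its low genes, where 1 read is a coarse step.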
